A study of Arabidopsis thaliana with 6 samples.

Results

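The 61 genes described here were at or below 0.5 of the Col-0 level in lsm1a lsm1b leaves of Arabidopsis thaliana in cold, in PEG and in NaCl. They were chosen by their values in the same libraries. A gene entered where the ratio of lsm1a lsm1b to Col-0, taken on CPM (each count over its column sum, times 1000000) with 0.5 added, was at most 0.5, and 5 CPM were reached in at least 1 of the 2 libraries, in each of the 3 stresses. Of the 13241 genes past the level limit in every stress, 69 passed the ratio limit as well, and 8 of these were set aside by the rule, which left 61 members of the 20297 genes listed in any stress. Because the rule used the contrast of the genotypes, all values of that contrast below are a description, and no test is given for it.

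The data are 6 RNA-seq libraries of leaves, 1 per genotype and stress, from plants aged 2 weeks. The lsm1a lsm1b double mutant, mutated in both LSM1 genes by its name, and the wild-type accession Col-0 went through the same treatments. Soil-grown plants were held at 4 °C for 24 h under weaker light (40 against 90 µmol m-2 s-1 during growth), and plants grown on GM plates were moved for 10 h to plates with 55% PEG, which withdraws water, or with 150 mM NaCl. All plants were in long days, and no unstressed library is part of the data used here. The labels name neither the alleles nor the number of plants behind a library. Over the genes listed for each stress, the lsm1a lsm1b libraries held 10289392 counted reads in cold, 18043773 in PEG and 22639128 in NaCl, against 12422329, 20527483 and 20183174 in Col-0.

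LSM1 is the subunit that sets the cytoplasmic LSM ring apart from the nuclear one. The ring binds mRNAs whose poly(A) tail has been shortened and promotes removal of the 5′ cap by DCP2, after which the exonuclease XRN4 degrades the body of the message. In Arabidopsis, LSM1A and LSM1B act redundantly, and plants without both are dwarfed. Messages of direct targets are known to be stabilised when the ring is lost, and the genes described here lie on the other side of the genotype contrast.

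The labels were checked on the mutated genes. LSM1A, itself 1 of the 8 genes set aside, had 10, 26 and 12 reads in the lsm1a lsm1b libraries of cold, PEG and NaCl, against 206, 246 and 273 in the Col-0 libraries. LSM1B had 39, 98 and 439 reads in the same lsm1a lsm1b libraries, against 152, 207 and 195 in Col-0. LSM1A was low in all 3 lsm1a lsm1b libraries, and LSM1B was low in cold and PEG but higher than Col-0 in NaCl, with a log2 ratio of 1.01 (0.76 to 1.26), where brackets hold a 95% interval from the counts (Clopper-Pearson, an exact binomial method) that covers counting error only. In NaCl the check thus held for LSM1A and not for LSM1B, and these counts cannot settle whether that library is the double mutant. It is called lsm1a lsm1b below by its label, and each NaCl direction is drawn from that library. Of 17 genes of mRNA decay matched by name, LSM1A and LSM1B were at most 0.5 of Col-0 in cold and LSM1A was in PEG and in NaCl, while 1, 2 and 2 were at least double in cold, PEG and NaCl.

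The libraries were also checked for their tissue. All 6 leaf markers were listed in every stress, with summed levels of 23039, 4835 and 16467 CPM in the lsm1a lsm1b libraries of cold, PEG and NaCl, against 25481, 3785 and 13646 CPM in Col-0. Single leaf markers differed more than the sums. At most 0.5 of Col-0 were 2 in cold (LHCB3 and LHCB5), 0 in PEG and 0 in NaCl. At least double were 0 in cold, 1 in PEG (RBCS3B) and 1 in NaCl (CA1). Seed storage and oil body genes moved with the genotype on plates. Their summed level was 1153 CPM in lsm1a lsm1b against 645 CPM in Col-0 under PEG with all 10 listed, and 735 CPM in the library labelled lsm1a lsm1b against 49.0 CPM in Col-0 under NaCl with 8 of 10 listed. In PEG 6 of the 10 were at most 0.5 of Col-0 and 4 at least double, and in NaCl 0 and 7 were. In cold 1 of the 10 was listed, at 5.25 CPM in lsm1a lsm1b against 1.05 CPM in Col-0. The summed root markers were 152, 1480 and 1482 CPM in lsm1a lsm1b against 106, 1490 and 1882 CPM in Col-0. The beta-glucosidase gene PYK10 made up most of these sums, with 1424 CPM in the library labelled lsm1a lsm1b against 1853 CPM in Col-0 under NaCl, while the other 4 root markers listed in NaCl were higher than in Col-0, CASP1 and WOX5 at least double, and the median log2 ratio over the 5 was 0.85. The flower markers were at most 1.94 CPM in any library, and the 2 listed shoot meristem markers summed to at most 33.6 CPM. The part of these genes in the results on the members was not tested, and in such bulk samples fewer cells of a type and less RNA per cell cannot be told apart.

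For comparison, a ratio at or below 0.5 was found for 4.22% of the genes past the level limit in cold, 2.68% in PEG and 4.28% in NaCl, and for 0.521% in all 3 together. The opposite pattern, at least double in all 3 stresses, held for 104 genes, or 0.785%. The median member had a log2 ratio, with 0.5 CPM added, of -2.19 in cold, -1.60 in PEG and -2.02 in NaCl, against 0.08, 0.10 and -0.01 over all genes past the level limit of each stress. The members were thus most often lowest, relative to Col-0, in cold: the lowest of the 3 ratios was in cold for 34 members, in NaCl for 17 and in PEG for 10. The cold pair also differed from the plate pairs in growth medium and duration, so cold cannot be told apart from these, here or below.

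Depth of the difference varied widely. In all 3 stresses, 14 members were at or below a ratio of 0.25, 10 at or below 0.125 and 5 at or below 0.0625. The 3 log2 ratios of a member lay a median of 1.09 apart, with 29 members under 1 apart and 7 members 2 or more apart. Close to the limit, 19 members had their largest ratio between 0.45 and 0.5, and 26 genes past the level limit lay just outside, between 0.5 and 0.55. The drought-repressed gene DR4 (largest ratio 0.499, in PEG), the acyltransferase-like AT3G23840 (0.495, in NaCl) and UGT73C1 (0.494, in NaCl) were the nearest inside. AT1G49200, AT5G06270 and AT1G80130 were the nearest outside, each with a largest ratio of 0.508.

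**Figure D1:**
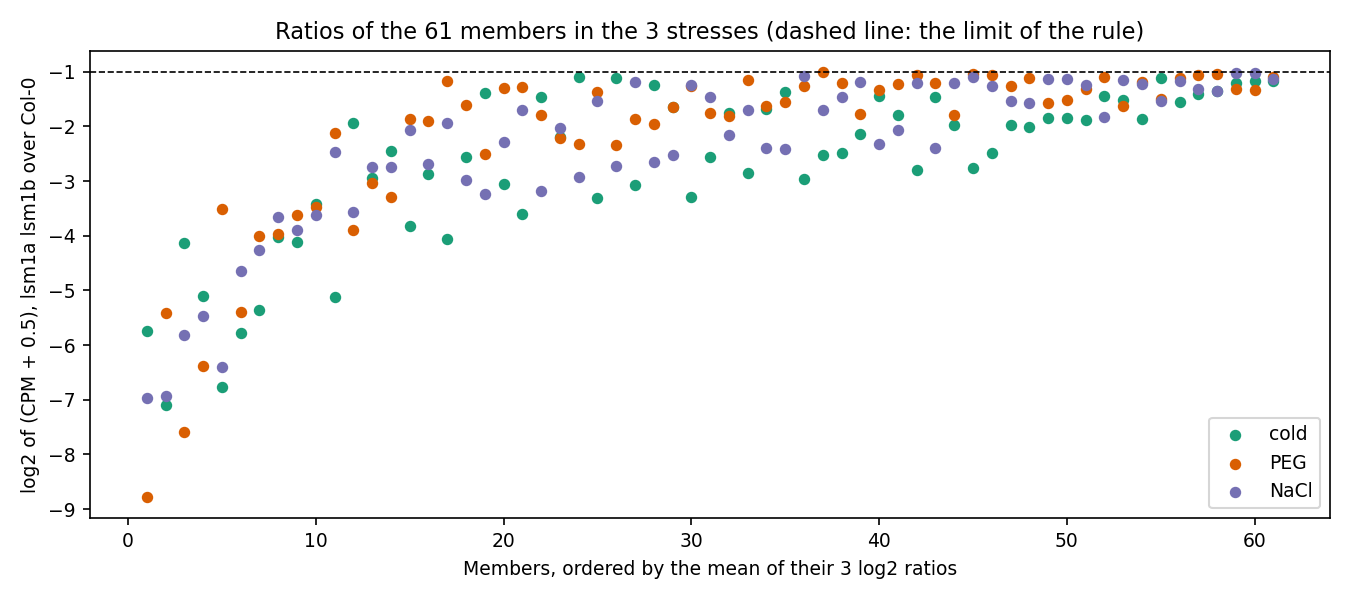
The log2 ratio of lsm1a lsm1b to Col-0 (CPM with 0.5 added, vertical axis) is plotted for each of the 61 members in cold, PEG and NaCl, with the members ordered by their mean on the horizontal axis and the dashed line at the limit of the rule. The first 10 members lie below -3 in every stress, and beyond them the points of a member often lie far apart, with cold lowest for 34 of the 61.

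The lowest mean ratios belonged to genes of no known function. AT5G66052 (chr5:26416126-26416924, TAIR10, as for all coordinates of genes below), annotated as an uncharacterised protein, had 0.389, 0.388 and 0.442 CPM in the lsm1a lsm1b libraries of cold, PEG and NaCl, against 47.2, 388 and 117 CPM in Col-0. These are 4, 7 and 10 reads in lsm1a lsm1b against 586, 7955 and 2363 in Col-0, so the gene was close to absent from all 3 libraries labelled lsm1a lsm1b while its Col-0 level differed by stress. The log2 ratio of the plain CPM was -6.92 (-8.80 to -5.56) in cold, -9.96 (-11.28 to -8.92) in PEG and -8.05 (-9.11 to -7.17) in NaCl. AT5G66053 lies within it on the opposite strand and shares all of its 147 bases with it, and without a stated strand of the libraries the reads of this pair cannot be told apart. It had 2, 1 and 2 reads in the lsm1a lsm1b libraries, against 146, 2173 and 657 in Col-0.

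AT5G49440 (chr5:20048239-20049597), also uncharacterised, had 0.389, 0.776 and 0.574 CPM in lsm1a lsm1b, against 121, 53.8 and 131 CPM in Col-0. Its log2 ratio was -8.28 (-10.16 to -6.92) in cold, -6.12 (-6.99 to -5.36) in PEG and -7.83 (-8.74 to -7.06) in NaCl. AT5G49640 (chr5:20151163-20151842) had 2, 0 and 1 reads in lsm1a lsm1b, against 469, 423 and 263 in Col-0, which with a floor of 3 reads in the mutant library puts it at least 124-fold lower in PEG. A locus annotated on the opposite strand, AT5G49645, covers AT5G49640 over its whole length. Per kilobase of transcript, Col-0 levels of these genes were not low: AT5G66052 reached 59.04, 485 and 147 RPKM and AT5G49440 89.1, 39.6 and 96.4 RPKM in Col-0 under cold, PEG and NaCl. The median Col-0 level of all 61 members was 17.8, 16.2 and 21.2 RPKM, close to the 15.3, 16.6 and 18.2 RPKM of all genes past the level limit, and in lsm1a lsm1b it was 2.51, 3.55 and 3.32 RPKM.

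**Figure D2:**
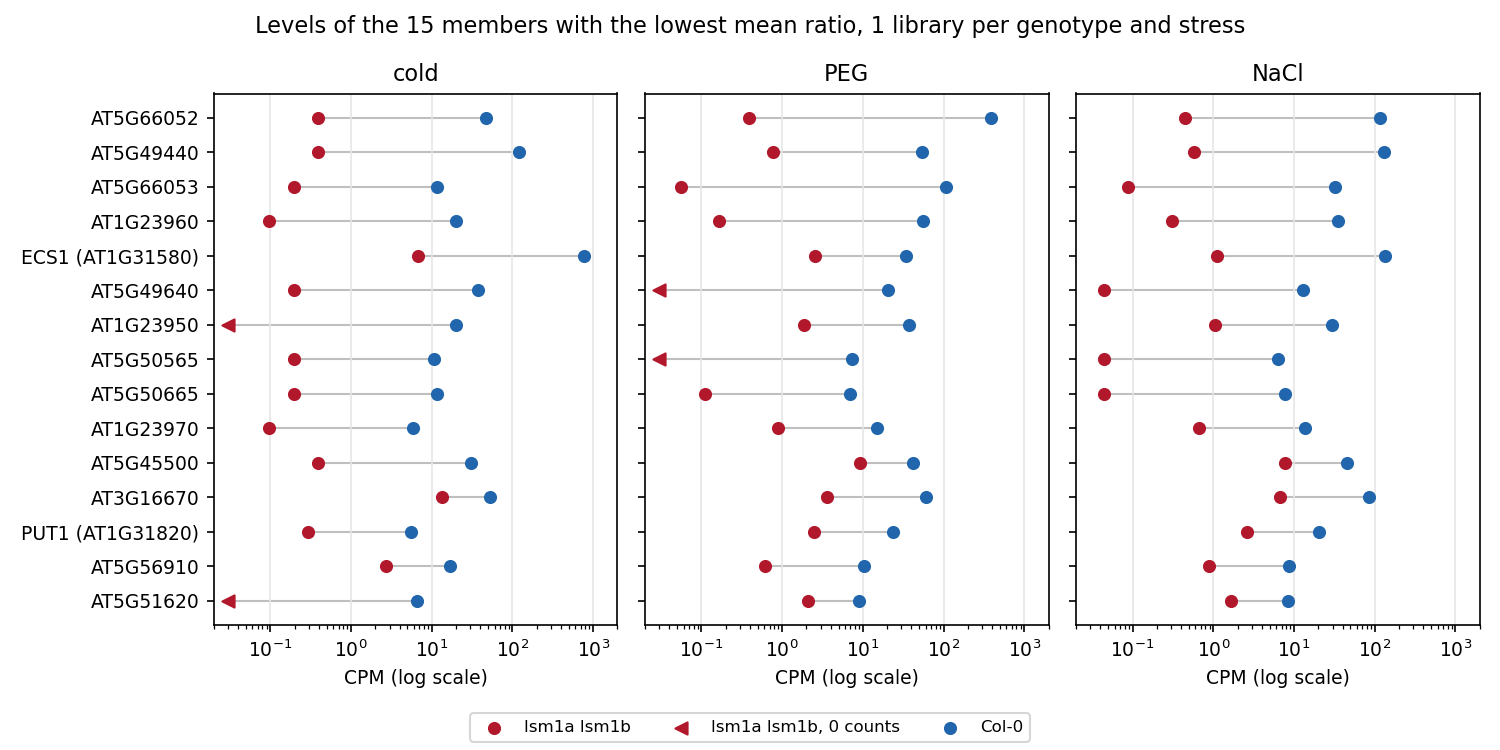
CPM on a log axis is shown for the 15 members with the lowest mean ratio, one panel per stress, with the lsm1a lsm1b library in red and the Col-0 library in blue, each point being 1 library and triangles marking 0 counts in lsm1a lsm1b. Every red point lies left of its blue point, as the rule requires, and AT5G66053 in PEG shows the widest gap, at 0.0554 against 106 CPM, followed by AT5G66052 in PEG at 0.388 against 388 CPM.

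ECS1 (chr1:11311169-11311989) stood out among the named genes. It encodes a cell wall protein first described for its link to infection by the bacterium Xanthomonas campestris. ECS1 had 6.71, 2.55 and 1.10 CPM in the lsm1a lsm1b libraries of cold, PEG and NaCl, against 780.4, 34.1 and 135 CPM in Col-0. Thus the gene was high in Col-0 in cold and low there in PEG, whereas no lsm1a lsm1b library was above 6.71 CPM, and the log2 ratio was -6.86 (-7.23 to -6.52) in cold, -3.74 (-4.20 to -3.31) in PEG and -6.94 (-7.57 to -6.37) in NaCl.

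The adjacent genes of a plant-specific family with a domain of unknown function (DUF626), namely AT1G23950, AT1G23960 and AT1G23970, were all among the 10 lowest members. AT1G23960 had 0.0972, 0.166 and 0.309 CPM in lsm1a lsm1b, against 19.96, 54.95 and 35.2 CPM in Col-0. AT1G23950 had 0, 1.88 and 1.06 CPM in lsm1a lsm1b, against 19.96, 37.6 and 29.6 CPM in Col-0, and with 0 of its reads in the cold lsm1a lsm1b library it was at least 68.5-fold lower there. AT1G23970 had 0.0972, 0.887 and 0.663 CPM in lsm1a lsm1b, against 5.88, 14.9 and 13.9 CPM in Col-0. The 3 genes were within 14.3 kb of each other (chr1:8469550-8483875), and no other gene past the level limit lay between them.

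The bases in front of 5 members are shown because AT5G66052 and AT5G49440 had the lowest mean ratios, ECS1 had the lowest among members with a gene symbol, AT1G23950 stands for the DUF626 run with an upstream window that overlaps no annotated locus, and FUM2 has a known metabolic role. Each is the 250 bases before the most upstream annotated start, from the RefSeq TAIR10.1 sequence, whose nuclear chromosomes match the coordinates of the files. Capitals mark every match, on either strand, to TATAAA (the TATA box letters), ACGTG (core of the abscisic acid responsive element), CCGAC (core of the dehydration responsive element), TTGAC (core of the W-box) and TGACG (core of TGA sites), and matches can overlap.
AT5G66052 (chr5:26415876-26416125, plus strand): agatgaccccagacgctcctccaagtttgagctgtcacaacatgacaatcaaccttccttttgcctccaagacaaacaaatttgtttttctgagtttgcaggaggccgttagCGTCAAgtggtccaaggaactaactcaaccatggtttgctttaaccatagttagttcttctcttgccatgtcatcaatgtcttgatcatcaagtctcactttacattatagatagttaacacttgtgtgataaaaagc
AT5G49440 (chr5:20047989-20048238, plus strand): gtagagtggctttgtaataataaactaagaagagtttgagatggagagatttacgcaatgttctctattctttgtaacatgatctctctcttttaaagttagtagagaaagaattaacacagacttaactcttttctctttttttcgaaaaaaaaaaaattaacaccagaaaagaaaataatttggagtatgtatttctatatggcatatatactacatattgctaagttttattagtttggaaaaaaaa
ECS1 (chr1:11310747-11310996, plus strand): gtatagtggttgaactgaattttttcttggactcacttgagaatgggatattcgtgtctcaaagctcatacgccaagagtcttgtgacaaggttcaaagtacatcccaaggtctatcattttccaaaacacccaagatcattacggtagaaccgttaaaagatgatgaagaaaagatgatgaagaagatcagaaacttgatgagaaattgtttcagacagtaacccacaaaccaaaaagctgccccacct
AT1G23950 (chr1:8471418-8471667, minus strand): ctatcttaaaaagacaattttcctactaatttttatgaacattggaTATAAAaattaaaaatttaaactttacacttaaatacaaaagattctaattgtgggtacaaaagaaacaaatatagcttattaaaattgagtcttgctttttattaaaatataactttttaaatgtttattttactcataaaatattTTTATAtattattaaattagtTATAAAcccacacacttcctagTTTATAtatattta
FUM2 (chr5:20729181-20729430, plus strand): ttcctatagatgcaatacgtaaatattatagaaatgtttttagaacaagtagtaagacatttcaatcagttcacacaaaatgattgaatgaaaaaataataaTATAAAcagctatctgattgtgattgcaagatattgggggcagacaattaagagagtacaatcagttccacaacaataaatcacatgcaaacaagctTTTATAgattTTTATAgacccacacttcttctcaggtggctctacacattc
The windows of AT5G49440 and ECS1 held none of the 5 motifs, that of AT5G66052 held TTGAC and TGACG in 1 overlapping stretch on the opposite strand, and those of AT1G23950 and FUM2 held TATAAA. Over the 61 members, TATAAA was in 29 windows (47.5%, against 45.7% of 13181 nuclear genes past the level limit), ACGTG in 11 (18.0% against 23.6%), CCGAC in 3 (4.92% against 13.8%), TTGAC in 22 (36.1% against 44.1%) and TGACG in 9 (14.8% against 19.5%). The windows had a median GC content of 30.8%, against 31.2%. A match is only a match of letters, and the shares were not tested.

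Among enzymes and transporters, FUM2 (chr5:20729612-20733516), the cytosolic fumarase that forms the fumarate stored in leaves, had 16.4, 8.37 and 22.5 CPM in lsm1a lsm1b, against 43.6, 49.9 and 216 CPM in Col-0. Its log2 ratio was -1.41, -2.58 and -3.26 in cold, PEG and NaCl, so FUM2 was furthest from Col-0 in NaCl, where its Col-0 level was highest. PUT1 (chr1:11416451-11418279), a polyamine uptake transporter, had 0.292, 2.49 and 2.61 CPM in lsm1a lsm1b, against 5.55, 23.9 and 20.4 CPM in Col-0. AT2G20670, a putative sugar phosphate exchanger by its annotation, had 10.01, 36.5 and 12.6 CPM in lsm1a lsm1b, against 61.3, 112 and 103 CPM in Col-0. ARAB-1, a GDSL-type lipase, had 0.680, 1.83 and 4.68 CPM in lsm1a lsm1b, against 8.13, 8.18 and 33.00 CPM in Col-0. In each of these 4 genes no lsm1a lsm1b library reached the Col-0 library of its own stress, as the rule requires. AT2G20670 kept 36.5 CPM in PEG, and FUM2 22.5 CPM in NaCl.

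AT5G44520, annotated as related to sugar isomerases and CoA transferases, and its neighbour AT5G44530, a subtilase-type protease, were lower mostly in cold. AT5G44520 had a log2 ratio of -4.81, -1.30 and -2.05 in cold, PEG and NaCl, from 0.680, 2.88 and 4.02 CPM in lsm1a lsm1b against 19.1, 7.11 and 16.7 CPM in Col-0. AT5G44530 had 5.93, 3.99 and 5.39 CPM in lsm1a lsm1b, against 53.2, 15.8 and 12.98 CPM in Col-0. LpxC2 and LpxC3, which belong to a pathway for lipid A-like molecules known from bacteria and kept in plant mitochondria, were close to the level limit, at 1.55, 5.43 and 2.92 CPM in lsm1a lsm1b against 5.07, 12.1 and 11.7 CPM in Col-0 for LpxC2.

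Of the genes linked to defence, 4 members encode receptors of the NBS-LRR type by their annotation, the proteins that sense pathogen effectors inside the cell. AT1G58602 had 10.7, 8.48 and 12.5 CPM in lsm1a lsm1b, against 111, 22.8 and 37.2 CPM in Col-0. AT5G43740 had 2.62, 2.33 and 2.16 CPM in lsm1a lsm1b, against 25.4, 6.48 and 12.4 CPM in Col-0, and AT4G19530 had 13.02, 3.27 and 6.05 CPM, against 36.5, 12.6 and 58.7 CPM. Of the 4, 3, among them AT5G40060, had their lowest ratio in cold, whereas AT4G19530 had it in NaCl (log2 -3.28, against -1.49 in cold). The leucine-rich repeat genes AT5G45500 and AT5G45510 lie side by side. AT5G45500 had 0.389, 9.31 and 7.73 CPM in lsm1a lsm1b, against 30.6, 42.3 and 44.7 CPM in Col-0, and AT5G45510 had 10.9, 61.2 and 53.9 CPM, against 112, 147 and 127 CPM, so in both the cold lsm1a lsm1b library was far lower than those of PEG and NaCl.

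Further members have varied annotations. AT5G56910, a cystatin-type proteinase inhibitor, had 2.72, 0.610 and 0.883 CPM in lsm1a lsm1b, against 16.99, 10.3 and 8.77 CPM in Col-0. AT3G16670, of a family named after a pollen allergen and extensins, had 13.4, 3.60 and 6.76 CPM in lsm1a lsm1b, against 53.05, 60.6 and 85.4 CPM in Col-0, and unlike ECS1 it was furthest from Col-0 in PEG (log2 -4.07) and least in cold (-1.98). AT5G51620, a protein of the UPF0172 family, had 0, 38 and 37 reads in lsm1a lsm1b, against 82, 184 and 170 in Col-0, which is at least 22.6-fold lower in cold. The thionin THI2.2, an antimicrobial peptide, and the indole glucosinolate methyltransferase IGMT4 were named for their roles after their values were seen. THI2.2 had 18.1, 3.66 and 8.75 CPM in lsm1a lsm1b, against 104, 9.11 and 25.1 CPM in Col-0, and IGMT4 had 41.9, 44.1 and 27.1 CPM, against 100.1, 173 and 174 CPM.

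Of the members linked to RNA, chromatin or transcription, TRM9 (chr1:11312961-11316473) is an RNA-binding family protein by its annotation. TRM9 had 1.65, 10.09 and 5.79 CPM in lsm1a lsm1b, against 25.5, 25.04 and 19.97 CPM in Col-0. Also named for their roles after their values were seen, the flowering regulators SPL2 and TOE3 and the histone H2A gene RAT5 had log2 ratios of -2.13, -1.34 and -1.61, of -2.19, -1.91 and -1.34 and of -1.20, -1.57 and -1.64 in cold, PEG and NaCl. Their levels were 2.24 to 6.48 CPM over the lsm1a lsm1b libraries, against 6.84 to 19.3 CPM in Col-0. By the rule, lsm1a lsm1b was below its own Col-0 library in each stress. The member with the highest CPM, named likewise, was the light-harvesting gene LHB1B1, with 549, 97.7 and 296 CPM in lsm1a lsm1b, against 1574, 301 and 657 CPM in Col-0.

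The remaining 23 members were neither among the 25 lowest nor within 100 kb of another. Their lsm1a lsm1b levels had a lowest, median and highest value of 0.875, 6.998 and 549 CPM in cold, 2.33, 8.59 and 97.7 CPM in PEG and 2.43, 12.4 and 296 CPM in NaCl, against 6.20, 18.8 and 1574 CPM, 5.80, 23.4 and 301 CPM, and 6.84, 28.98 and 657 CPM in Col-0. The plain log2 ratios ran over -3.12 to -1.20 in cold, -1.97 to -1.02 in PEG and -2.68 to -1.03 in NaCl. ATBETAFRUCT4, the vacuolar invertase that splits sucrose, had 36.6, 31.5 and 40.9 CPM in lsm1a lsm1b, against 133, 91.4 and 90.1 CPM in Col-0. CYP71B26, a cytochrome P450, had 7.09, 8.59 and 12.7 CPM in lsm1a lsm1b, against 32.9, 30.6 and 29.5 CPM in Col-0. DR4, a protease inhibitor-like gene named as drought-repressed, had 0.875, 19.5 and 12.4 CPM in lsm1a lsm1b, against 7.41, 39.5 and 41.3 CPM in Col-0, so it was low in cold in both genotypes and closest to the limit in PEG. AT1G63850, a BTB/POZ domain gene, had the most even ratios, with log2 values of -1.20, -1.15 and -1.16 in cold, PEG and NaCl, from 12.5, 7.15 and 12.99 CPM in lsm1a lsm1b against 28.8, 15.9 and 28.98 CPM in Col-0. GOS11, a SNARE protein of the Golgi, had 6.997, 20.8 and 11.2 CPM in lsm1a lsm1b, against 21.6, 45.7 and 25.9 CPM in Col-0, and ARI15, of a family of ubiquitin ligases, 4.37, 5.26 and 4.95 CPM, against 11.9, 11.4 and 13.5 CPM. ATBETAFRUCT4, CYP71B26, AT1G63850, GOS11 and ARI15 were chosen for this account after their values were seen.

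Near-identical copies were common. Among the 61 members, 14 (23.0%) had a near-identical copy elsewhere (at least 95% identity over at least 50% of the transcript), against 1.14% of all genes past the level limit with a transcript. In 12 of the 14 a copy was itself a member, so these counts do not stand for independent genes and the reads of a pair could be split or lost by the counting. The 120 bases in front of the annotated start of AT5G50565 and AT5G50665 are shown as an example of how closely a pair can match outside the transcript as well.
AT5G50565 (chr5:20579993-20580112, plus strand): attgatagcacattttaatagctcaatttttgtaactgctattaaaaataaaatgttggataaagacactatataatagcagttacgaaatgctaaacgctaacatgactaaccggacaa
AT5G50665 (chr5:20613335-20613454, plus strand): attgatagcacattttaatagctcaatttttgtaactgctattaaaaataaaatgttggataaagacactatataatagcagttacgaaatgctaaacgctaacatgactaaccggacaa
All 120 bases are the same, and the transcripts match at 100% over 1687 bases. AT5G50565 had 2, 0 and 1 reads in lsm1a lsm1b, against 134, 151 and 129 in Col-0, and AT5G50665 had 2, 2 and 1, against 144, 143 and 154. The WD40-repeat genes AT5G50550 and AT5G50650 next to them form a second identical pair, at 0.777, 1.11 and 1.37 CPM in lsm1a lsm1b against 5.31, 6.97 and 7.09 CPM in Col-0 for AT5G50550 and 1.17, 1.55 and 1.24 CPM against 5.15, 6.67 and 7.28 CPM for AT5G50650.

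Other copy groups showed the same closeness of values. AT3G28290 and AT3G28300, both annotated AT14A, a membrane protein with similarity to animal integrins, have identical transcripts of 1672 bases, and had 48.2, 2.27 and 4.33 and 49.5, 2.55 and 3.67 CPM in the lsm1a lsm1b libraries of cold, PEG and NaCl, against 106, 13.5 and 31.5 and 106, 14.7 and 31.3 CPM in Col-0. The ribosomal protein S5 family genes AT1G58684, AT1G58983 and AT1G59359 were lower mainly in cold, with log2 ratios there of -3.06, -2.88 and -2.82. In PEG and NaCl their ratios lay between -1.28 and -1.06. AT1G24822, AT1G24996 and AT1G25097 share stretches with no mismatch, and LpxC3 has 3 further copies that are no members, all at 100% identity, so its level of 2.04, 4.32 and 2.34 CPM in lsm1a lsm1b, against 7.65, 14.4 and 14.4 CPM in Col-0, is uncertain. In all, 15 members were overlapped by a locus on the opposite strand, over 6 bases in AT5G44530 and over the whole length in AT5G49640. The share over all genes was not counted. Where strand was not used, the counts cannot separate reads from the overlapping bases.

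The members were unevenly placed in the genome. Chromosomes 1 and 5 held 27 and 25 of them, chromosomes 2, 3 and 4 held 3, 5 and 1, and chromosomes 1 and 5 together held 52 of 61 (85.2%), against 59 of the 104 genes higher in all 3 stresses (56.7%) and 6559 of all 13241 genes past the level limit (49.5%). The 7 windows of 1 Mb with 3 or more members held 34 members (55.7%), 803 genes past the level limit (6.06%) and 3 of the 104 higher genes (2.88%). The fullest were at 8 to 9 Mb on chromosome 1, with 8 members among 124 genes, and at 20 to 21 Mb on chromosome 5, with 8 among 130. Among the first 8 are AT1G24822, AT1G24996, AT1G25097, LpxC2 and LpxC3, which share or overlap bases. Among the second 8 are the identical pairs around AT5G50565. These counts therefore do not stand for independent genes. The nearest member lay 0.790 Mb from LSM1A on chromosome 1, with 17 members within 5 Mb, and 1.01 Mb from LSM1B on chromosome 3, with 3 within 5 Mb. The 17 include the 8 members at 8 to 9 Mb. All genes within these spans were not counted, so these numbers do not show that members are concentrated near LSM1A or LSM1B.

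**Figure D3:**
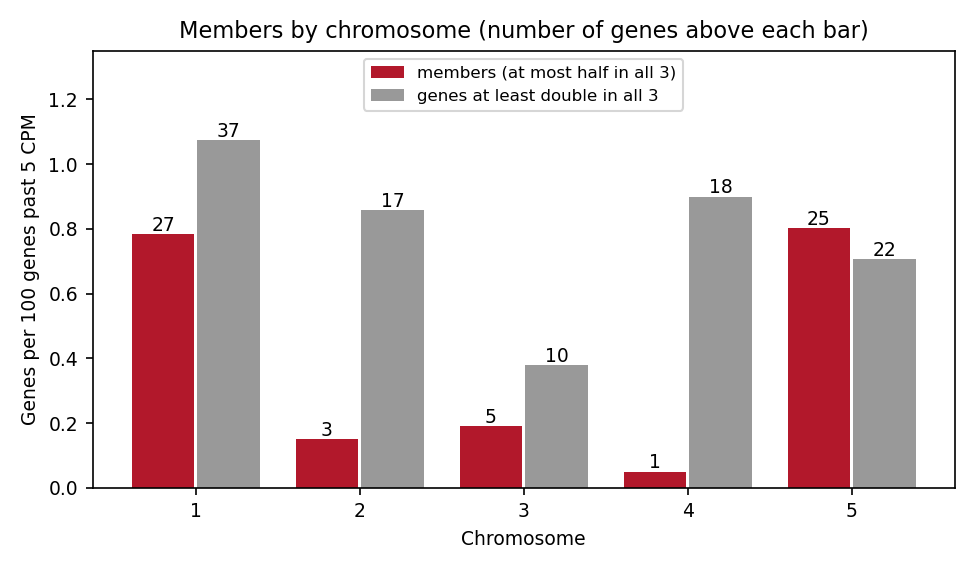
Bars give genes per 100 genes past 5 CPM on each nuclear chromosome, for members in red and for genes at least double in all 3 stresses in grey, with the number of genes above each bar. Members reach 0.78 and 0.80 per 100 genes on chromosomes 1 and 5 and at most 0.19 on the others, while the higher genes range over 0.38 to 1.07.

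In 9 runs, 28 members lay within 100 kb of another member, and the median distance to the nearest other member was 108 kb. Several runs hold near-identical copies or overlapping loci, so their members are not independent. In 5 runs there was no other gene past the level limit: the DUF626 genes, the 5 genes of chr1:8774997-8814788 with AT1G24822, LpxC2, LpxC3, AT1G24996 and AT1G25097, the AT14A pair, AT5G45500 with AT5G45510, and AT5G66052 with AT5G66053. In the other 4, members were mixed with genes that were not at most 0.5 of Col-0 in every stress. ECS1, TRM9 and PUT1 were 3 of 13 genes over 107 kb (chr1:11311169-11418279), AT1G58602 and the ribosomal protein genes 4 of 8 (chr1:21746373-21843745), AT5G44520, AT5G44530 and AT5G44680 3 of 7 (chr5:17934287-18025991), and the repeated genes around AT5G50565 4 of 7 (chr5:20576870-20615470).

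Some genes next to the members were lower as well. Of 94 nearest genes past the level limit that were no members, 17 (18.1%) were at most 0.5 of Col-0 in cold, 5 (5.32%) in PEG and 11 (11.7%) in NaCl, against 3.84%, 1.99% and 3.51% of all genes past the level limit in all 3. The same neighbours were also at least double somewhat more often, at 9.57%, 7.45% and 5.32%, against 6.46%, 3.01% and 2.998%, and their median log2 ratio was -0.18, 0.00 and -0.07, against 0.06, 0.10 and -0.02, with no test of these shares. TAO1, an immune receptor gene beside AT5G44520, had the lowest mean ratio, with 0.777, 4.49 and 4.11 CPM in lsm1a lsm1b, against 8.69, 6.92 and 13.3 CPM in Col-0. PFK2, a phosphofructokinase gene of glycolysis beside AT5G47800, had 0.389, 7.26 and 8.48 CPM in lsm1a lsm1b, against 7.81, 14.1 and 13.5 CPM in Col-0. Both were far below Col-0 in cold and nearer to it in PEG, but other low neighbours differed. SPL13B, beside AT5G50665, was furthest from Col-0 in NaCl, with 2.82, 1.83 and 2.16 CPM in lsm1a lsm1b against 5.96, 5.75 and 13.1 CPM in Col-0. AT4G19520, beside AT4G19530, was above Col-0 in cold (73.8 against 48.1 CPM) and far below it in NaCl (6.27 against 64.3 CPM). Over the 7 windows with 3 or more members, 8.996% of the 767 other genes were at most 0.5 of Col-0 in cold, 2.48% in PEG and 5.997% in NaCl, against 2.98%, 1.42% and 2.82% of the 12405 genes elsewhere. The cause of this closeness in position was not tested.

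**Figure D4:**
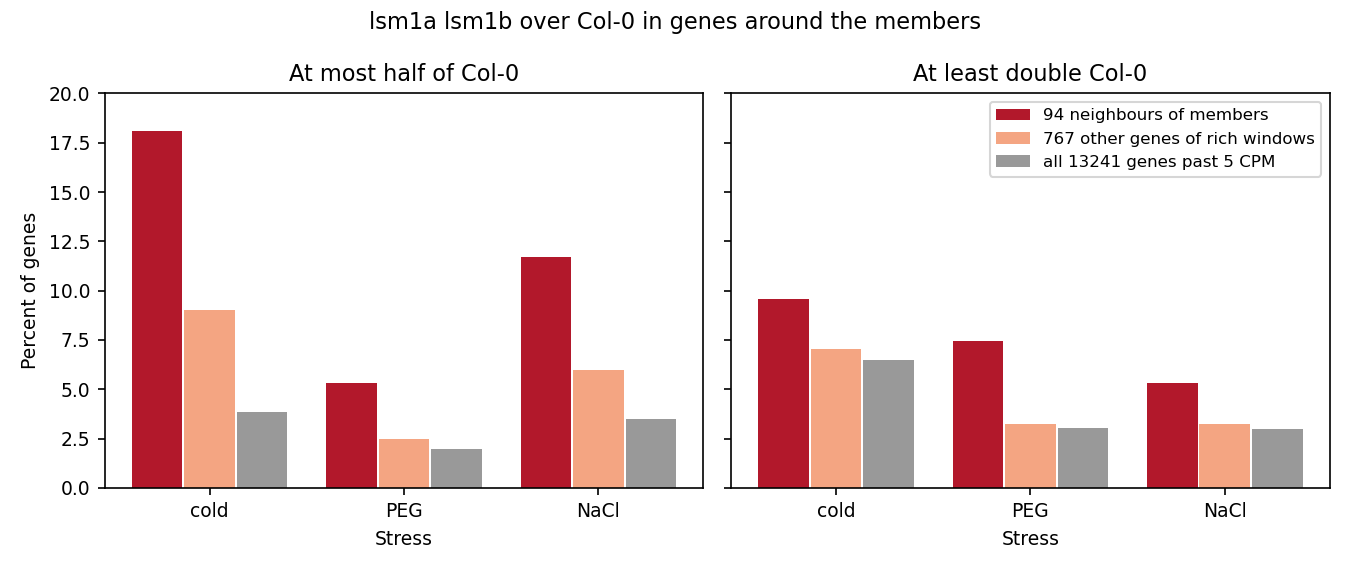
Bars give the percent of genes at most 0.5 of Col-0 (left) and at least double Col-0 (right) in lsm1a lsm1b for the 94 neighbours of the members, for the 767 other genes of the 7 windows with 3 or more members and for all 13241 genes past 5 CPM, in each stress. The neighbours reach 18.1% at most 0.5 of Col-0 in cold, against 3.84% of all genes, and some neighbours are among the 767.

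Genes related to the members by name were nearer to the rest of the genome. Of 740 measured genes with the same product name as a member, 29 (3.92%) were at most 0.5 of Col-0 in cold, 13 (1.76%) in PEG and 41 (5.54%) in NaCl, beside the 3.84%, 1.99% and 3.51% of all genes, with median log2 ratios of 0.04, 0.07 and -0.09. At least double were 7.97%, 3.11% and 2.70% of the 740, beside 6.46%, 3.01% and 2.998% of all genes. Of the 14 relatives of AT5G43740 in the CC-NBS-LRR class, 7 were at most 0.5 of Col-0 in cold, 0 in PEG and 6 in NaCl, and of the 25 relatives of AT4G19530 in the TIR-NBS-LRR class 1, 1 and 9 were. At least double in cold, PEG and NaCl were 2, 1 and 0 of the 14, and 5, 3 and 0 of the 25. The median log2 ratio of the 25 was 0.55 in cold, 0.25 in PEG and -0.61 in NaCl. Some relatives, such as AT1G58848 and AT1G59218 of the CC-NBS-LRR class, were also among the neighbours of members above. Of the 5 relatives of the ribosomal protein S5 genes, 0 were at that ratio in any stress, and of the 22 relatives of RAT5, 0, 3 and 2 were in cold, PEG and NaCl. The members were shorter, with a median transcript of 1359 bases, against 1614 bases over all genes past the level limit, and 18 of them (29.5%) had an uncharacterised or hypothetical product, against 8.72%.

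PEG and NaCl could be compared with a test, since the rule did not use that contrast itself. In edgeR's quasi-likelihood fit of all 6 libraries with genotype as a term, 1 of the 61 members was higher in PEG and 4 were lower at an adjusted p (Benjamini-Hochberg) under 0.05, or 8.20% in all. Among all 16927 genes tested, 3.21% were higher and 5.33% lower, so the members' share was near the background. The median log2 difference of the members was 0.07, against 0.00 over all genes. Each of the 5 went the same way in both genotypes, but the fit takes 1 difference for both and so favours such genes. No condition has replicates, so the spread in the fit is how genotype ratios vary among the 3 stresses, cold included. The rule limited those ratios in the members, so their p-values are not free of it. The calls rest on 2 libraries a side: leaving out any 1 of the 4 PEG and NaCl libraries left 0 members and 0 genes past the threshold, with 10 to 14 members (16.4% to 23.0%) at an unadjusted p under 0.05 in edgeR, beside 14.2% to 21.3% of all genes. With all libraries 17 members (27.9%) were, beside 32.2% of all genes.

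AT1G52000, a lectin-like gene, was lowest in PEG relative to NaCl. It had 5.76 CPM in PEG against 22.00 CPM in NaCl in lsm1a lsm1b, and 14.03 CPM against 117 CPM in Col-0. The log2 difference was -2.49 ± 0.30 (SE), with an edgeR adjusted p of 0.0272. LHB1B1 had 97.7 CPM in PEG against 296 CPM in NaCl in lsm1a lsm1b, and 301 CPM against 657 CPM in Col-0, a difference of -1.33 ± 0.24 (edgeR adjusted p 0.0409). AT5G44680, of a DNA glycosylase family that removes damaged bases, differed by -1.29 ± 0.26 (edgeR adjusted p 0.0486), and ARAB-1 by -1.67 ± 0.34 (edgeR adjusted p 0.0497). Only UGT73C1, a glucosyltransferase of small molecules, was called higher in PEG. It had 38.1 CPM in PEG against 20.3 CPM in NaCl in lsm1a lsm1b, and 97.2 CPM against 41.6 CPM in Col-0, a difference of 1.10 ± 0.19 (edgeR adjusted p 0.0393). The members that were lowest in lsm1a lsm1b, such as AT5G66052, AT5G49440 and ECS1, were not called in this comparison. This does not show equal levels, since the fit takes 1 difference for both genotypes. In Col-0, PEG and NaCl levels were 388 and 117 CPM for AT5G66052, 53.8 and 131 CPM for AT5G49440 and 34.1 and 135 CPM for ECS1. In lsm1a lsm1b they were 0.388 and 0.442, 0.776 and 0.574, and 2.55 and 1.10 CPM. With the plate libraries only, AT5G66052 was called, and AT5G49440 and ECS1 were not.

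**Figure D5:**
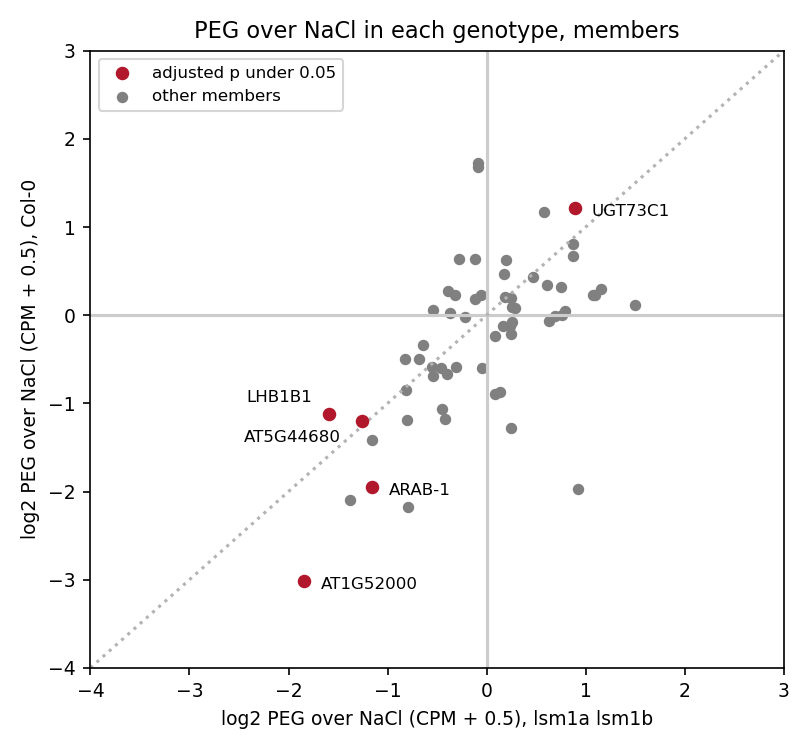
Each point is a member, with its log2 PEG over NaCl difference (CPM with 0.5 added) in lsm1a lsm1b on the horizontal axis and in Col-0 on the vertical axis, and the 5 members past an adjusted p of 0.05 in red. The red points lie on the same side of 0 in both genotypes, 4 below it and UGT73C1 above it, and the fit that called them favours such points.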

How the data were processed

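Leaf RNA from 6 libraries, 1 per genotype and stress, was grouped by the sample labels. The deposited values are whole-number read counts per gene, used as the authors deposited them. Per the submitters' processing notes, TopHat2 and DESeq2 were used with the TAIR10 genome, and the counting tool, its use of strand and versions are not given in the sources used here. Each file lists genes of at least 1 RPKM in either library of its stress, and the locus code was used where it differed from the transcript name (270 NaCl rows, 1 PEG row).

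CPM were computed from column sums. Members and lists were chosen with earlier results of these data known. Named are the 25 members with the lowest mean of the 3 log2 ratios, members within 100 kb of another, those nearest to the limits, and those called between PEG and NaCl; others were chosen after their values were seen. The symbol PAT1 belongs to a phytochrome signalling gene, so decay was followed in 17 of 18 genes. PEG was compared with NaCl in edgeR 4.0.16 (TMM, filterByExpr, 16927 genes) in R 4.3.3. In simulated counts for that comparison over 16919 genes, 17% of genes changed 2-fold and 99% of those changed 4-fold were recovered. The simulation changed 100 genes by each factor, all with a mean of 5 CPM or more. It gave all genes 1 common spread and no genotype difference, so recovery in the real libraries can differ. With no separate cultures stated, p-values measure only the spread between these libraries. Copies were searched with BLAST+ 2.17.0, and gene names, overlaps and upstream bases came from RefSeq TAIR10.1, in which 16777 nuclear loci of the files were found on the same strand. Alternatives were DESeq2 1.42.0, other scalings, added CPM, level and ratio limits, windows, and libraries left out.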

Additional observations from a re-analysis of the deposited data

How the results depend on the processing

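The number of genes at most 0.5 of Col-0 in all 3 stresses was 61, and it moved to 20 with a level limit of 20 CPM, 14 with a ratio of at most 0.25, 185 with a ratio of at most 0.67, 137 without the cold pair and 148 without the PEG pair. All 61 were kept in the last 3, as a looser rule must keep them. It was 46 to 90 under TMM factors, DESeq2 size factors, sums without organelle genes, 0.1 or 2 CPM added, level limits of 1 CPM or none, and without the NaCl pair. TMM factors kept 59 and DESeq2 size factors 60 of the 61. Members in 1 Mb windows of 3 or more were 34, and 27 and 38 in windows of 0.5 and 2 Mb. With a level limit of 1 CPM, 9 neighbours were at most 0.5 in PEG and 17 in NaCl, against 5 and 11. Between PEG and NaCl, 5 members (8.20%) were called in edgeR, 10 (16.4%) with DESeq2, 21 (34.4%) with the plate libraries only and 0 without the genotype term (1 at an unadjusted p under 0.05), beside 8.54%, 18.0%, 28.7% and 2.34% of all genes, and 0 to 0 members with 1 library left out; of the 5 calls, ARAB-1 missed the threshold under DESeq2 size factors (adjusted p 0.0501). None of these 5 log2 differences changed sign in these settings; the signs of other results were not followed. No paired analysis was possible because each genotype and stress has 1 library, with no replicate number to use as a block, and genotype itself is a term of the PEG and NaCl fit. Counts of 0 to 3 reads in lsm1a lsm1b limit the ratios of the lowest members, and 1 library per condition limits every genotype value.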
